A study of Mus musculus with 72 samples.

Results

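Macrophage genes were followed in liver and in the suprachiasmatic nucleus (SCN), the part of the hypothalamus that acts as master clock, in mice given food deficient in methionine and choline (MCD). The 10 genes were taken by symbol: Trem2, Gpnmb, Itgax, Lpl and Spp1, known from lipid-associated macrophages, Cd68 and Adgre1, carried by most macrophages, and Clec4f, Timd4 and Cd5l, known from Kupffer cells, the resident macrophages of the liver. Of these, 9 had a row among the 22823 genes of the liver count table and 6 among the 15759 genes of the SCN table, and 5 (Trem2, Lpl, Spp1, Cd68 and Adgre1) had a row in both. All of these rows passed the filter on low counts. Gpnmb had a row in the SCN table only, so its liver level was taken from counts summed over its exon bins, the stretches into which its exons were divided for counting.

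The 72 RNA-seq libraries came from C57BL/6 mice aged 8 to 12 weeks that were fed for 11 days. Tissue (liver or SCN), diet (MCD or an isocaloric control) and 6 circadian times (CT0 to CT20, 4 h apart) made 24 groups of 3 libraries. Per the labels, 2 libraries of each group were male and 1 was female, although the protocol text speaks of males only. All mice, controls included, were housed singly under a light-dark cycle for 10 days and were in constant darkness on the last day. Liver RNA came from the middle of the left lobe, and the SCN was cut by laser from stained brain sections. Nothing in the labels says whether the 3 libraries of a group came from separate mice, so the p-values measure the spread between these libraries. The labels also do not tie a liver library to an SCN library.

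Lack of methionine and choline keeps hepatocytes from exporting lipid as very-low-density lipoprotein, and the diet is used to produce fatty, inflamed liver. Macrophages that take up lipid and debris in such tissue switch on a programme with the receptor TREM2, the lysosomal proteins GPNMB and CD68, the integrin CD11c (the product of Itgax), lipoprotein lipase and osteopontin. Kupffer cells carry CLEC4F and, when long-lived, TIM4 (the product of Timd4), and they are a main source of the secreted protein CD5L. In the brain the corresponding resident macrophages are microglia, which also express Trem2 and Cd68.

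Promoters are shown for 5 members, 3 whose liver level separated the diets most (Trem2, Gpnmb and Itgax), Cd68 as a marker of macrophages in general and Clec4f as a Kupffer cell marker. Each runs from 250 bases before to 50 bases after the transcription start, 5′ to 3′ on the strand of the gene, in the RefSeq annotation of GRCm38.p6. Capitals mark GAGGAA on either strand (TTCCTC on the other), the core that the macrophage factor PU.1 binds. In order, they lie at chr17:48346151-48346450 (plus strand), chr6:49036268-49036567 (plus), chr7:128129300-128129599 (plus), chr11:69666121-69666420 (minus) and chr6:83656067-83656366 (minus).

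Trem2: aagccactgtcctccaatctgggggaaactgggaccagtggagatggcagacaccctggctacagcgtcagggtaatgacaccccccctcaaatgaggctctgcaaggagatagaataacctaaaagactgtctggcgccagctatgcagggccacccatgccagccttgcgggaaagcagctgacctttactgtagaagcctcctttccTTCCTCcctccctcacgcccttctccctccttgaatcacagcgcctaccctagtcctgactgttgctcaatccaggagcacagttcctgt
Gpnmb: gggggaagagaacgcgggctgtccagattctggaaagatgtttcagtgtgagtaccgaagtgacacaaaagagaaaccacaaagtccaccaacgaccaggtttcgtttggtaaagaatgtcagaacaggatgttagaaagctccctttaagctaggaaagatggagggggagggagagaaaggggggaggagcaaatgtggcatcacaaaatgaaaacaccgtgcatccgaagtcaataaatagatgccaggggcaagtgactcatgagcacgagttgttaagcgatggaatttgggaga
Itgax: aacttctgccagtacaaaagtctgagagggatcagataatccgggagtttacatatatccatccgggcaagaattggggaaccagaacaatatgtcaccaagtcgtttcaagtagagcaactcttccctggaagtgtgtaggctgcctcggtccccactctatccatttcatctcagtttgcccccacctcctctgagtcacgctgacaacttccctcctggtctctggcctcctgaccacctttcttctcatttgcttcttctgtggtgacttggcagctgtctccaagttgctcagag
Cd68: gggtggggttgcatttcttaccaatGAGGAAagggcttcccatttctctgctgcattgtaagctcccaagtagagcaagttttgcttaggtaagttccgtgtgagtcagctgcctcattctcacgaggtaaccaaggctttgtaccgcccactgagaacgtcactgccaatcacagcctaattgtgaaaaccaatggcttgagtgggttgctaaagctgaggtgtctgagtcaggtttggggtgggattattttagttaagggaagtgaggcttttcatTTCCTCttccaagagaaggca
Clec4f: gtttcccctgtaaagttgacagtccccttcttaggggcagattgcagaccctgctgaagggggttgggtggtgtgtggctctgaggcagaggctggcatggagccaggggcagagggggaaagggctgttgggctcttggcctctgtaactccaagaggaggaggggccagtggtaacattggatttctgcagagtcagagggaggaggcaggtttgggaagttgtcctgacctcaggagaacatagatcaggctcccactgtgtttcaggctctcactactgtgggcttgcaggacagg

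The motif was present in 4 of the 8 members with a promoter in the table (Trem2, Cd68, Cd5l and 1 of the 2 starts of Spp1) and in 28.1% of all 32544 promoters of the same length. In Trem2 it begins 40 bases before the start, and in Cd68 it occurs 225 bases before and 30 bases after it. Of the other letters searched on both strands, the E-box CACGTG, to which clock factors bind, was in no member's window and in 7.17% of all promoters, and CATGTG was in that of Timd4 only and in 14.2% of all promoters. A match describes the letters only.

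The depth of a liver library was between 52.6 and 86.7 M gene counts, with a median of 64.4 M, and that of an SCN library between 23.4 and 79.8 M, with a median of 57.0 M. Levels are given as CPM, the count divided by the library total after TMM scaling, in units of 1 per M. In the SCN the summed level of neuron markers ran from 1530 to 3461 CPM and in liver it was at most 1.12 CPM, so the tissues matched their labels. Liver libraries fell into 2 kinds by the mitochondrial transcript mt-Nd6, with 8 control and 13 MCD libraries of the low kind and 10 control and 5 MCD libraries of the high kind. A term for the kind left the same number of members called for diet, 7 of 9. The names of 2 control columns at CT8 were the same, and these libraries are called control CT8 a and control CT8 b. In liver, control CT8 a lay within the MCD range for Trem2, Itgax, Lpl and Cd68, and MCD CT4 replicate 1 and MCD CT12 replicate 2 lay far above the other MCD libraries for the same genes. Whether control CT8 a carries the right diet label was not tested, which bears on every control maximum and on the diet effect at CT8. Among the exon-bin files, control CT8 replicate 1 stood apart in the same way. No label ties it to control CT8 a, and taking its place in exon-bin results is an inference from the values. Results that rest on these 3 libraries are given with and without them.

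In liver, 7 of the 9 members tested rose on the MCD diet, averaged over the 6 times (edgeR's quasi-likelihood test, Benjamini-Hochberg adjusted p at most 0.05 over all 20249 genes). No member fell. The background was high: the same test called 46.6% of all genes and found 25.3% higher, 5130 genes against 4296 lower, and the median gene shifted by 0.02 on the log2 scale. With library totals as the scaling, that shift was 0.27 and the split 10633 to 1540. Under that scaling 8 members were higher, Timd4 added, and none was lower. In tissue RNA, more cells of a type and more RNA per cell cannot be told apart.

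Trem2 encodes a receptor for lipids and apolipoproteins that signals through TYROBP. In the 18 control livers it lay at 0.264 CPM in the lowest library, at 0.666 at the median and at 8.57 in the highest, and in the 18 MCD livers at 1.51, 3.19 and 19.1 CPM. The control value of 8.57 belonged to control CT8 a, and the next control, at 1.42 CPM, lay below the lowest MCD library. Without control CT8 a, all 18 MCD libraries thus lay above all 17 controls, a separation shown by 140 genes, 0.691% of those tested, and by no other member of the gene table. Control CT8 a was set aside after its values for Trem2 and other members were seen. The share is therefore no independent support for the separation. The ratio of the medians was 4.79. The difference was 2.39 ± 0.32 on the log2 scale (SE, adjusted p 9.74e-07, edgeR), 2.71 without control CT8 a and 2.32 without all 3 libraries that stood apart (adjusted p 5.46e-11).

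At CT0, Trem2 lay between 0.476 and 0.701 CPM in the 3 control livers and between 1.98 and 2.91 in the 3 MCD livers. At CT4 these ranges were 0.628 to 0.826 and 3.83 to 16.0 CPM, and at CT8 they were 0.662 to 8.57 and 2.48 to 4.42 CPM. All MCD libraries lay above all controls of their time at CT0 and CT4 but not at CT8, where control CT8 a was the highest of the 6. At CT12 controls lay between 0.380 and 0.949 CPM and MCD livers between 2.90 and 19.1. At CT16 the ranges were 0.280 to 0.843 and 2.49 to 3.48 CPM, and at CT20 0.264 to 0.703 and 1.51 to 5.02 CPM. The groups were thus apart at 5 of 6 times, and at 6 without control CT8 a. The share of all genes apart at single times was not counted, here or for Lpl and Adgre1 below.

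Gpnmb encodes a membrane glycoprotein of lysosomes and phagosomes. Summed over its exon bins, it lay at 0 CPM in the lowest of 16 control livers, at 0.239 at the median and at 19.5 in the highest, control CT8 replicate 1 of the exon-bin files. In the 18 MCD livers it lay at 2.43, 8.01 and 141.5 CPM. Without that control, all 18 MCD libraries lay above the 15 controls, the highest of which held 1.12 CPM. The share of all genes separated in this way in exon-bin sums was not counted. The ratio of the medians over all libraries was 33.6. Over the 5 times with complete control files the difference was 5.40 ± 0.64 log2 (SE, edgeR adjusted p 8.98e-07), against a background of 39.6% of 20595 genes called in that fit. It was 5.94 without that control and 5.16 without the 3 libraries that stood apart.

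Itgax encodes the CD11c chain, an integrin of dendritic cells and of macrophages in fatty tissue. Its level in control livers was 0.400, 1.02 and 9.35 CPM (lowest, median and highest of 18) and in MCD livers 2.26, 4.57 and 24.1 CPM. Without control CT8 a the highest control held 2.29 CPM, and 17 of 18 MCD libraries lay above every control. The rise was 2.10 ± 0.31 log2 (adjusted p 4.31e-06), 2.39 without control CT8 a and 2.00 without the 3 libraries.

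Lpl encodes lipoprotein lipase, which releases fatty acids from the triglycerides of lipoproteins. It lay at 9.34, 17.5 and 94.7 CPM in control livers and at 18.5, 39.0 and 312 CPM in MCD livers. Here the groups overlapped more: without control CT8 a, 11 of 18 MCD libraries lay above the highest control of 28.5 CPM. Within single times, MCD libraries lay above the controls at 5 of 6 times and at all 6 without control CT8 a. The rise was 1.44 ± 0.27 log2 (adjusted p 0.000127), 1.62 without control CT8 a and 1.15 without the 3 libraries.

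Spp1 encodes osteopontin, a secreted ligand of integrins and CD44 that cholangiocytes make too. It was at 19.6, 25.5 and 35.5 CPM in control livers and at 15.4, 22.2 and 32.8 CPM in MCD livers, with ranges that overlapped over most of their length. Its difference of -0.19 ± 0.08 log2 did not pass the test (adjusted p 0.051). It passed by DESeq2 (-0.20, adjusted p 0.0435), without control CT8 a (-0.21, adjusted p 0.0373) and without the 3 libraries (-0.28, adjusted p 0.00194), on the lower side. Leaving out any 1 of 15 libraries carried it past the threshold, and scaling by library totals turned it to 0.07. Reads of Spp1 may be shared with Gm42793, a gene on the same strand that covers 18.75% of its exon length.

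**Figure D1:**
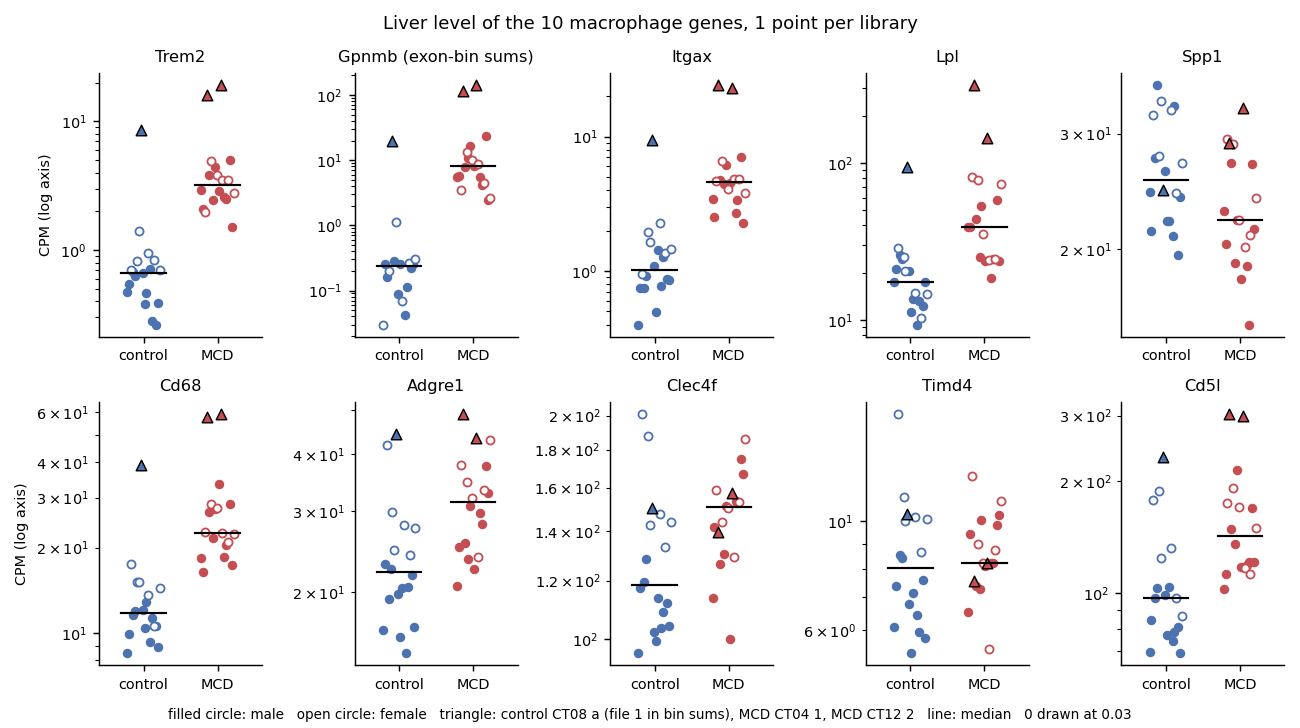
Liver level of each of the 10 genes on a log axis in CPM, control beside MCD, 1 point per library, filled for males and open for females, with triangles for the 3 libraries that stood apart, a line at the median and the Gpnmb library at 0 drawn at the foot of its axis. Without the control triangle, Trem2 and Gpnmb separate the diets and 17 of 18 MCD libraries of Itgax lie above every control, while Timd4, Spp1 and Clec4f overlap.

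Cd68 encodes a glycoprotein of the lysosomal membrane and is widely used to stain macrophages. It lay at 8.50, 11.8 and 39.1 CPM in control livers and at 16.4, 22.6 and 59.3 CPM in MCD livers. Without control CT8 a, 16 of 18 MCD libraries lay above the highest control of 17.5 CPM. The rise was 1.01 ± 0.15 log2 (adjusted p 5.36e-06), and 0.97 without the 3 libraries.

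Adgre1 encodes F4/80, the classical surface marker of mouse macrophages. Its control livers lay at 14.7, 22.1 and 44.4 CPM and its MCD livers at 20.7, 31.5 and 49.0 CPM, so that the ranges overlapped widely. The rise was 0.43 ± 0.12 log2 (adjusted p 0.0059), with all MCD libraries above all controls at 2 of 6 times.

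Cd5l encodes a secreted scavenger receptor protein that protects macrophages from apoptosis. It lay at 69.0, 97.1 and 232 CPM in control livers and at 103, 142 and 304 CPM in MCD livers. The highest control was again control CT8 a, and the next held 188 CPM, above the MCD median. The rise was 0.57 ± 0.15 log2 (adjusted p 0.00268), and 0.48 without the 3 libraries.

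Clec4f encodes a C-type lectin found in mice almost only on Kupffer cells. It lay at 95.9, 118 and 201 CPM in control livers and at 100.2, 151 and 186 CPM in MCD livers. The medians differed by a ratio of 1.28 and the ranges nested. The rise of 0.20 ± 0.07 log2 passed the test (adjusted p 0.0197), but it was lost without MCD CT12 replicate 2, and also with exon-bin sums in place of the table's counts.

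Timd4 encodes the phosphatidylserine receptor TIM4, which long-lived resident macrophages use to take up dying cells. It lay at 5.38, 8.02 and 16.6 CPM in control livers and at 5.48, 8.24 and 12.4 CPM in MCD livers. The ratio of its medians was 1.03, and its difference of 0.06 ± 0.10 log2 did not pass the test (adjusted p 0.644).

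Without replicate number 1 in every group, 4 members were called beside 31.2% of all genes, and without number 2, 5 were beside 35.4%. In both fits Adgre1, Cd5l and Clec4f were no longer past the threshold, while Trem2, Itgax, Lpl and Cd68 were. Without the 3 libraries that stood apart the count was 8, Spp1 added, beside 47.5% of all genes.

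**Figure D2:**
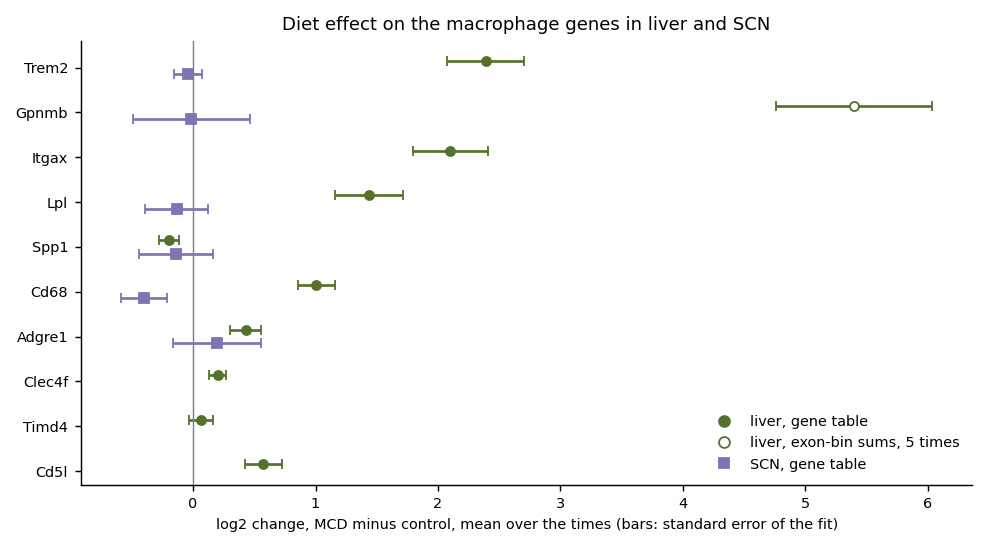
Log2 difference between MCD and control, averaged over the times, for each member in liver (circles, open for the exon-bin sums of Gpnmb) and in SCN (squares), with bars for the standard error of the fit. Liver values run from -0.19 for Spp1 to 5.40 for Gpnmb, and SCN values from -0.40 for Cd68 to 0.19 for Adgre1.

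At single times the test had 3 libraries against 3. At CT4, where 18.2% of all genes were called, Trem2 (3.54 ± 0.80 log2, adjusted p 0.00337), Itgax (3.34), Cd68 (1.55) and Lpl (2.52) were higher on MCD. At CT12, with 15.2% of all genes called, these were higher too, Trem2 by 3.82 ± 0.82 log2 (adjusted p 0.00315), Cd68 by 1.65, Itgax by 2.97 and Lpl by 2.25. Each of these times holds 1 of the MCD libraries that stood apart. Without that library alone, only Trem2 of the members passed at CT4, and likewise at CT12. Without all 3 libraries that stood apart, Trem2 (2.55), Itgax (2.21), Lpl (1.19) and Cd68 (1.07) passed at CT4 and Trem2 (2.38), Itgax (1.71) and Cd68 (1.16) at CT12, while Lpl did not (0.79, adjusted p 0.147). Lpl was also lost at CT4 without control CT4 replicate 1 or 2 (adjusted p 0.0546 and 0.0586) and at CT12 without any 1 of the 3 controls (0.0660 to 0.118), and Itgax at CT12 without control CT12 replicate 1 (0.0764). Without a whole replicate number, Trem2 was lost at CT4 (number 1) and at CT12 (1 or 2), and Itgax and Cd68 at both times without number 1 or 2 (adjusted p 0.0523 to 0.380). Lpl was lost at CT4 without number 1 or 3 and at CT12 without any 1 number (0.0621 to 0.587).

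At CT0 only Itgax passed (2.33 log2, adjusted p 0.0476), beside 12.6% of all genes, and that call was lost under 31 alternatives. At CT20, Trem2 (2.77, adjusted p 0.0263) and Clec4f (0.57, adjusted p 0.0331) passed, beside 11.3% of all genes. The first call was lost without MCD CT20 replicate 1 or control CT20 replicate 1 or 2 (adjusted p 0.122, 0.111 and 0.0990), and the second without any 1 of the 6 libraries of that time (0.0517 to 0.124). Without any 1 replicate number neither passed. At CT16, with 12.5% of all genes called, edgeR called 0 members, DESeq2 1, and 6 had an unadjusted p under 0.05; Trem2 differed by 2.20 log2 (adjusted p 0.0608).

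At CT8, 1.3% of all genes were called, and edgeR, DESeq2 and the unadjusted threshold each called 0 members. This is the time of control CT8 a: with that library the difference in Trem2 was 0.00 log2, and without it 1.81, which did not pass. Without the 3 libraries, Trem2 (1.90, adjusted p 0.00655), Itgax (1.98) and Cd68 (0.95) passed at CT8. Over all times, 11 of the 54 pairs of a member and a time passed with all libraries, 17 without control CT8 a and 28 without the 3, beside 11.8%, 14.8% and 15.5% of all gene-time pairs. In exon-bin sums Gpnmb passed at CT4 (7.54 log2), CT12 (8.36), CT16 (5.04) and CT20 (4.91), where 16.1%, 13.1%, 10% and 9.02% of all genes did. Without the 3 libraries its value was 5.69 at CT4 and 5.93 at CT12, and both passed beside 13.1% and 9.61% of all genes.

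The 3 libraries stood apart for some members and not for others. Trem2 was at 8.57 CPM in control CT8 a, 16.0 in MCD CT4 replicate 1 and 19.1 in MCD CT12 replicate 2, against at most 5.02 in the other MCD livers and 1.42 in the other controls. Lpl was at 94.7, 312 and 144 CPM, against at most 81.8 and 28.5. Gpnmb in bin sums was at 19.5 CPM in control CT8 replicate 1 of the exon-bin files and at 114 and 141.5 in the same MCD libraries, against at most 23.2 and 1.12.

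They were the highest control library and the 2 highest MCD libraries for Trem2, Gpnmb, Itgax, Lpl, Cd68, Cd5l and Adgre1 alike. For Adgre1 the distance was small, with 44.4, 49.0 and 43.3 CPM against at most 42.9 in the other MCD livers and 41.9 in the other controls. For Clec4f they ranked 3rd among the controls and 13th and 5th among the MCD livers, for Timd4 3rd, 14th and 12th, and for Spp1 10th, 3rd and 1st. Stellate cell markers summed to 686, 863 and 782 CPM in the same libraries, against medians of 372 in control and 444 in MCD livers. Neutrophil markers summed to 7.40, 24.9 and 12.9 CPM against 2.86 and 6.81, and dendritic cell markers to 18.5, 27.7 and 24.4 CPM against 14.2 and 16.1, with the first of these libraries the highest control and the second the highest MCD library for all 3 lists. Their hepatocyte markers summed to 78436, 57891 and 65408 CPM, against medians of 96449 in control and 102214 in MCD livers. The part of these in the members' values was not tested.

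Across the 18 MCD livers, Trem2 was correlated with Gpnmb (Pearson's r 0.95, Spearman's rho 0.86, permutation test with adjusted p 9e-05 and 0.00027 over 18 relations) and with Itgax (r 0.96, rho 0.84). Without the 2 livers farthest from the median of Trem2, r was 0.83 for each. With Cd68 r was 0.92 (0.70 without the 2), with Cd5l 0.83 (0.51), with Lpl 0.76 (0.33), with Spp1 0.62 (0.35, adjusted permutation p 0.0077 with all) and with Adgre1 0.55 (0.11, adjusted p 0.0217 with all). With Clec4f r was 0.03 and with Timd4 -0.23, with adjusted permutation p of 0.895 and 0.393. In the 18 control livers, r with Trem2 was 0.47 for Clec4f (rho 0.68, adjusted permutation p 0.0630 and 0.00932) and 0.49 for Timd4 (rho 0.74, adjusted p 0.0585 and 0.0036). These correlations within a diet, and their p-values, also hold differences between times and sexes. With group and sex means removed over all 36 livers, r with Trem2 was 0.86 for Itgax, 0.83 for Cd68, 0.80 for Lpl and 0.76 for Cd5l. It was 0.73 for Adgre1, 0.61 for Clec4f, 0.40 for Timd4 and 0.31 for Spp1.

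Within the 13 MCD livers of the low mt-Nd6 kind, r with Trem2 was 0.94 for Gpnmb and for Itgax, 0.88 for Cd68 and 0.01 for Clec4f. The 5 MCD livers of the high kind were too few for a value of their own. In the 16 control exon-bin files the relation of Trem2 with Gpnmb rested on the pair farthest from the median, control CT8 replicates 1 and 3: r was 0.84 with all and -0.13 without them. In the gene table the farthest pair was control CT8 a and control CT20 replicate 1. Without it r with Trem2 went from 0.83 to 0.53 for Itgax, from 0.86 to 0.54 for Cd68, from 0.74 to 0.59 for Cd5l, from 0.76 to 0.22 for Lpl, from 0.65 to 0.48 for Adgre1 and from 0.16 to 0.33 for Spp1. With all 18 controls the adjusted permutation p of the first 5 of these was between 0.000972 and 0.0110, and that of Spp1 was 0.593. The r went from 0.49 to 0.66 for Timd4 and from 0.47 to 0.58 for Clec4f. Within the 8 control livers of the low kind and the 10 of the high kind, r with Trem2 was 0.53 and 0.44 for Clec4f and 0.64 and 0.44 for Timd4.

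**Figure D3:**
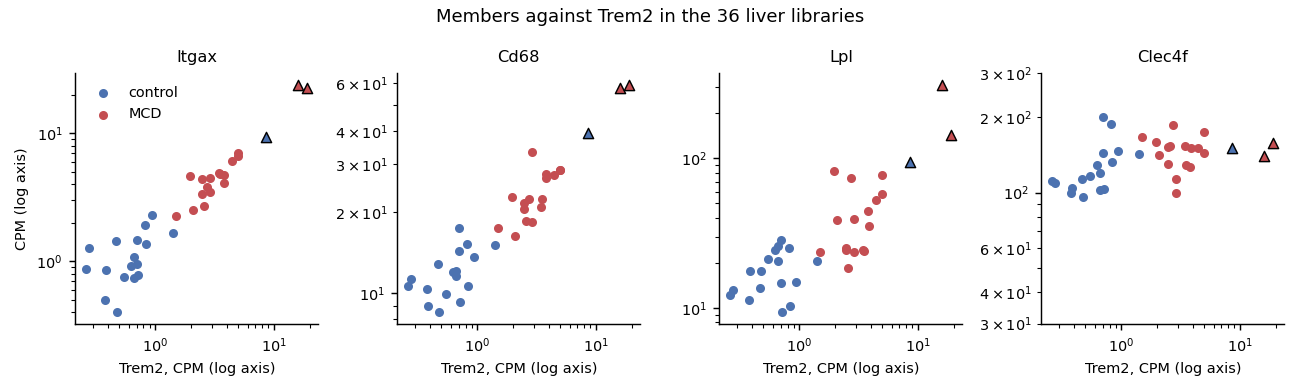
Level of other members against that of Trem2 in the liver libraries, both axes logarithmic in CPM, 1 point per library, coloured by diet, with triangles for the 3 libraries that stood apart. Across MCD livers r with Trem2 is 0.96 for Itgax and 0.03 for Clec4f, and across control livers 0.83 and 0.47 (0.53 and 0.58 without the pair farthest from the median).

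No member passed the test for a 24 h component in liver. On the control diet 17.8% of all genes passed, and 0 of 9 members did by edgeR, 4 by DESeq2 and 5 at an unadjusted p under 0.05. On MCD 28.2% of all genes passed and 0 members did by edgeR, 1 by DESeq2 and 1 unadjusted. The difference in rhythm between the diets passed for 4.87% of all genes, and for 0 members by edgeR and by DESeq2, with 1 at an unadjusted p under 0.05.

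Lpl came near on both diets, with adjusted p of 0.0903 on control and 0.0877 on MCD. Its control livers lay between 17.6 and 28.5 CPM at CT0 and between 9.34 and 13.2 CPM at CT16, and its MCD livers between 38.8 and 81.8 CPM and between 18.5 and 24.4 CPM at these times. Low values at CT16 were thus seen on both diets, and the ranges at CT0 and CT16 did not overlap. Without the 3 libraries that stood apart Lpl passed on both diets (adjusted p 0.00538 and 0.00142), and Clec4f and Spp1 passed on MCD (0.0385 and 0.0199). Trem2 on the control diet had a fitted peak at 7.85 h (adjusted p 0.0656), the time of control CT8 a. It passed by DESeq2 (0.0156) and without MCD CT4 replicate 1 (0.0468), MCD CT12 replicate 2 (0.0284), control CT8 replicate 3 (0.0363) or control CT8 b (0.0238). On leaving other libraries or replicate numbers out its adjusted p rose to as much as 0.553, and under other settings to 0.521. The other control calls of DESeq2 were Itgax (0.0430), Lpl (0.0452) and Cd5l (0.0388). On leaving libraries or replicate numbers out, the edgeR values of these rose to as much as 0.607, 0.395 and 0.297.

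**Figure D4:**
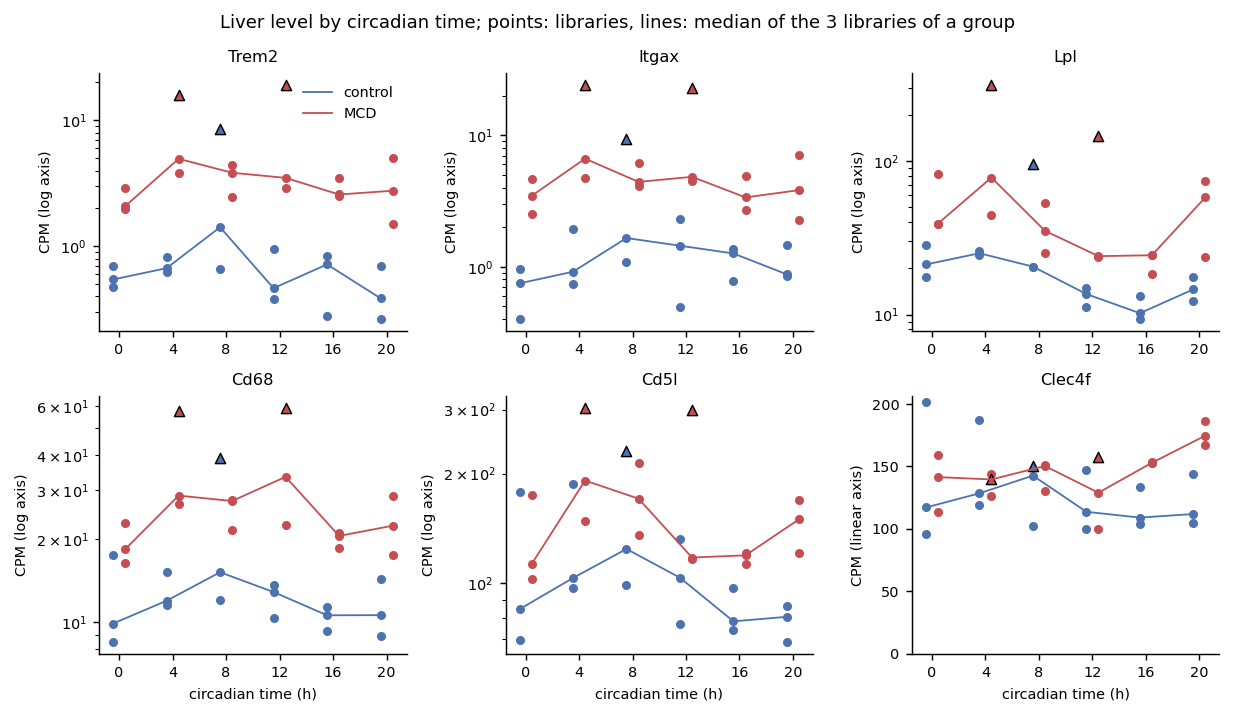
Liver level of selected members by circadian time in hours, 1 point per library and lines through the median of the 3 libraries of a group, on log axes in CPM apart from Clec4f, whose axis is linear. The MCD line of Trem2 lies above the control line at all 6 times, and both lines of Lpl are low at CT16.

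Libraries labelled female had more mRNA of 2 Kupffer cell genes in liver than those labelled male. Every female library is replicate number 3 and no male library is, so sex and number cannot be told apart. Clec4f lay at 95.9, 123 and 175 CPM in the 24 male livers and at 129, 149 and 201 CPM in the 12 female livers, and Timd4 at 5.38, 7.58 and 10.4 against 5.48, 10.1 and 16.6 CPM. The ranges overlapped for both, with the female median above the male. The difference was 0.30 ± 0.07 log2 for Clec4f (adjusted p 0.00748) and 0.37 ± 0.11 for Timd4 (adjusted p 0.0236), and 9.44% of all genes differed by sex. The call for Timd4 was lost in exon-bin sums (0.31, adjusted p 0.0977), without replicate number 1 or 2 (0.272 and 0.136) and without any 1 of 5 female libraries, MCD CT0 and control CT0, CT12, CT16 and CT20 (0.0506 to 0.0762). That for Clec4f was lost without number 1 (0.178). Without the 3 libraries, all of them male, Adgre1 (0.47), Cd5l (0.39) and Itgax (0.53) passed as well.

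The diet effect was 0.33 log2 in males and -0.05 in females for Clec4f, and 0.24 and -0.29 for Timd4. These differences between the sexes did not pass (adjusted p 0.165 and 0.175), and 1.77% of all genes did. Of the 9 members, 0 passed by edgeR and by DESeq2, and 2 had an unadjusted p under 0.05. Trem2 rose by 2.66 in males and 1.87 in females, and Lpl by 1.42 and 1.47. Clec4f passed without the 3 libraries (-0.36, adjusted p 0.0422).

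Other genes of the same programmes were read from 9 lists, each counted in the same liver test. Of all 20249 genes in it, 25.3% were higher and 4296 lower. Of 27 further genes of the lipid-associated programme, 20 were higher and 2 lower on MCD, with a median of 0.60 log2 against 0.02 for all genes. Atp6v0d2, a subunit of the proton pump of lysosomes, rose by 2.21 ± 0.36 (mean 6.19 to 19.7 CPM), and Lgals3, which encodes galectin-3, by 1.77 ± 0.27 (6.06 to 20.8 CPM). The fatty acid carrier Fabp5 fell by 3.70 ± 0.21 (83.3 to 6.50 CPM), and Apoe, which hepatocytes make in bulk, had -0.12 ± 0.05, a value that scaling by library totals turned to 0.13. In the TREM2 signalling complex 10 of 12 genes were higher and 0 lower (median 0.62), among them the kinase Syk (0.85) and the phosphatase Inpp5d (0.67).

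All 19 genes of the list common to macrophages were higher (median 0.69), among them Cd14 (1.18), a co-receptor for lipopolysaccharide, and the integrin chain Itgb2 (1.00). Of 18 Kupffer cell identity genes 10 were higher and 2 lower (median 0.41). The scavenger receptor Marco rose by 2.11 (6.90 to 24.2 CPM) and Id1 by 1.66, and the complement component C6 fell by 1.53 (197 to 49.4 CPM), while the ficolin gene Fcna had -0.10, which library totals turned to 0.15. Of 15 genes of monocytes and recruited macrophages 13 were higher (median 1.27), with the chemokine receptors Cx3cr1 (1.91, 0.535 to 2.17 CPM) and Ccr2 (1.31, 2.02 to 5.03 CPM). Fibronectin, Fn1, which hepatocytes make in bulk, was lower by -0.29 (2456 to 2018 CPM), a call that library totals ended (-0.03).

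Cytokines and chemokines were higher in 13 of 17 cases (median 1.14), led by Ccl2, the ligand of CCR2 (2.74, 0.493 to 3.23 CPM), and Cxcl10 (2.09, 2.77 to 11.6 CPM). The partners of lipoprotein lipase moved in both directions, with 7 of 15 higher and 5 lower. Angptl8, which takes part in inhibiting the enzyme, rose by 2.26 (86.3 to 337 CPM) and its activator Apoc2 by 0.90 (52.2 to 96.4 CPM), while hepatic lipase Lipc fell by 0.81 and the maturation factor Lmf1 by 0.65. Of 10 osteopontin receptor genes 6 were higher, Cd44 by 0.84 and Itga4 by 0.81, and 1 was lower, Itgb1 by -0.07, which library totals turned to 0.19. Of 6 genes of the beta-2 integrins and their ligands 5 were higher, among them Icam1 (1.28) and Itgam (1.02). Without the 3 libraries the number higher changed by at most 1 in each list. Without replicate number 1 in every group, the number called fell from 10 to 4 for the TREM2 complex, from 7 to 3 for the osteopontin receptors and from 5 to 3 for the beta-2 integrins, while the share of all genes called fell from 46.6% to 31.2%. The calls of Apoe, Fcna and Itgb1, all of small size, were lost under 20, 23 and 12 of 45 alternatives, and that of Itgam without number 1 or number 2. With library totals as the scaling, the counts higher and lower were 15 and 1 in the Kupffer cell list, 10 and 4 among the lipase partners and 9 and 0 among the osteopontin receptors.

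Markers of other cell types are set beside all 20249 genes, of which 46.6% were called, 25.3% higher and 4296 genes lower. Summed neutrophil markers lay at 1.30, 2.86 and 7.40 CPM in control livers and at 3.37, 6.81 and 24.9 CPM in MCD livers, and 5 of the 5 tested were higher. Of 7 dendritic cell markers, which share Itgax with the members, 6 were higher and 1 lower, with summed medians of 14.2 and 16.1 CPM. Of 8 stellate cell markers tested 3 were higher, of 8 cholangiocyte markers 2, and of 8 endothelial markers 3, with 1 lower. With 8 markers each, these counts do not stand out from the 25.3% of all genes higher. T and NK cell markers were lower in 1 of 9 cases and hepatocyte markers in 3 of 7, and B cell markers passed in neither direction. The part of these cell types in the members' levels was not tested.

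With the means of the 12 diet and time groups and of sex removed, the genes most like Trem2 over the 36 livers were Col6a3 (r 0.91), a collagen chain of stromal cells, Evl, Plxna1, Lyve1, Treml4 and Gdf10, none under 0.88. Those most like Clec4f were C1qa (0.93), Cfp, Siglec1, Vsig4, Fgd2 and Cd5l, the last at 0.889. Among the members, r was highest between Cd5l and Adgre1 (0.94) and between Cd68 and Adgre1 (0.92), and lowest between Spp1 and Timd4 (0.27). The 3 libraries that stood apart enter all of these values.

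Usage of exons within a gene was tested in 34 livers as a further readout. It differed between the diets for 3.48% of 11694 genes, and for 0 of the 10 members by the Simes test of edgeR, with 0 at an unadjusted p under 0.05. The lowest unadjusted p was 0.254, for Gpnmb. By the gene-level F test Gpnmb had p 0.0436 and an adjusted p of 0.402. DESeq2 has no such test and was not run for it.

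Levels of different genes were compared per kilobase of merged exons. In control livers the medians per kilobase were 47.9 CPM for Clec4f, 47.7 for Cd5l, 15.5 for Spp1 and 9.35 for Cd68. They were 6.83 for Adgre1, 3.69 for Timd4, 1.67 for Lpl, 0.213 for Itgax and 0.135 for Trem2. On MCD, Cd5l stood first at 69.7 and Clec4f next at 61.1, and Cd68 passed Spp1, which stood at 13.5, while Itgax at 0.952 and Trem2 at 0.646 stayed last. The ranges of Clec4f and Cd5l overlapped on both diets, so their order is within the spread. Trem2, which had the highest diet effect among the members of the gene table, had the lowest median per kilobase. In control livers its range of 0.0534 to 1.73 overlapped that of Itgax, 0.0832 to 1.95. On MCD the ranges were 0.306 to 3.87 and 0.470 to 5.01, so their order too is within the spread. It also rests on the merged exon lengths used, 4.946 kb for Trem2 and 4.803 kb for Itgax.

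In the SCN the diet effect passed for 10 genes, 0.0635% of those tested, and for 0 of the 6 members by edgeR and by DESeq2, with 1 at an unadjusted p under 0.05. Trem2 lay at 3.00, 4.13 and 6.58 CPM in the 18 control libraries and at 2.26, 4.50 and 8.10 CPM in the 18 MCD libraries. Cd68 lay at 1.90, 3.65 and 10.2 against 1.62, 2.67 and 5.16 CPM. The ranges overlapped for both. Cd68 differed by -0.40 ± 0.18 log2 (unadjusted p 0.0384, adjusted p 1) and Trem2 by -0.04 ± 0.11 (adjusted p 1).

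Lpl, which neurons and microglia also express, lay at 1.83, 4.89 and 39.7 CPM in control SCN and at 1.11, 5.40 and 35.7 on MCD. Spp1 lay at 0.516, 5.56 and 33.3 against 1.95, 6.71 and 22.5 CPM, Adgre1 at 0, 1.48 and 2.78 against 0, 1.50 and 2.83, and Gpnmb at 0, 0.858 and 4.07 against 0, 0.900 and 2.44. The groups overlapped throughout. Some of the zeros of the gene table were not zeros in the exon-bin files: Gpnmb was listed at 0 in MCD CT4 replicate 3 and MCD CT20 replicate 3, where its bins summed to 3.41 and 4.02 CPM, and Adgre1 in MCD CT20 replicate 2, where they held 47 counts. For Adgre1 in MCD CT4 replicate 3 the bins held 0 and the gene table gave 2.83 CPM. The differences were -0.13 ± 0.26 log2 for Lpl, -0.14 ± 0.30 for Spp1, 0.19 ± 0.36 for Adgre1 and -0.02 ± 0.48 for Gpnmb, all with an adjusted p of 1. With standard errors of 0.36 and 0.48, a change in Adgre1 or Gpnmb of the size that Adgre1 had in liver (0.43) was not detectable here.

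**Figure D5:**
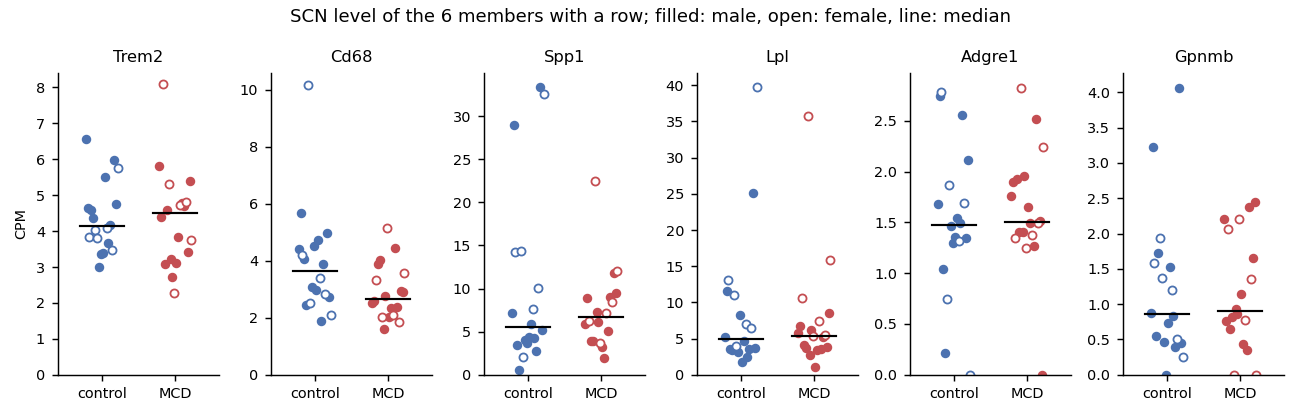
SCN level in CPM on linear axes of the 6 members with a row, control beside MCD, 1 point per library, filled for males and open for females, with a line at the median. The diets overlap for all 6, and a few libraries of Lpl and Spp1 reach above 20 CPM.

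At single times 0.0106% of 94554 gene-time pairs passed in the SCN, and 0 of the 36 pairs of a member and a time did by edgeR, by DESeq2 or at an unadjusted p under 0.05. Of the 91 genes on the 9 lists that were tested in the SCN, edgeR called 0 for diet, and 4 had an unadjusted p under 0.05. The Kupffer cell members were nearly without counts there. In exon-bin sums over the 36 SCN libraries Cd5l was at 0 in all, Clec4f at 0 in 35, Timd4 at 0 in 34 and Itgax at 0 in 23, with at most 2.10 CPM in any library. Per kilobase, the order of the SCN medians was Spp1, Cd68, Trem2, Lpl, Adgre1 and Gpnmb on both diets, from 3.37 to 0.132 CPM in control and from 4.07 to 0.138 CPM on MCD.

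Spp1 was the 1 member that passed the test for a 24 h component on the control diet in the SCN, and Lpl lay just outside the threshold. On the control diet its 3 libraries held 7.17, 29.0 and 14.2 CPM at CT0 and 33.3, 5.23 and 32.6 CPM at CT20, while those at CT8 held 4.01, 3.68 and 2.08 CPM. High values came at CT20 and CT0, but 1 library of CT20 lay within the range of CT12, 4.43 to 7.66 CPM. The values of 29.0, 33.3 and 32.6 CPM came from libraries with 21407866, 29102624 and 18315163 exon-bin counts. The CT20 library at 5.23 CPM had 49800530. Control CT4 replicate 3, with 21385795, held 7.758 CPM of Spp1 in exon-bin sums. The part of depth was not tested. The test gave an adjusted p of 0.0208, with a fitted peak at 21.4 h, and 15.1% of all genes passed on this diet. The call rested on few libraries: leaving out SCN control CT0 replicate 2, CT8 replicate 3 or CT20 replicate 1 ended it (adjusted p 0.062, 0.0648 and 0.0775), as did leaving out replicate number 1 (0.285) or 3 (0.0683). Lpl had an adjusted p of 0.0545 on the control diet. It passed by DESeq2 (0.0264), with library totals (0.0494) and without SCN control CT8 b (0.0150), control CT20 replicate 2 (0.0142), MCD CT4 replicate 2 (0.0476) or 3 (0.0235) or MCD CT12 replicate 1 (0.0452).

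On MCD the adjusted p of Spp1 was 0.435, with 16.1% of all genes called. On that diet 0 of the 6 members passed by edgeR and 1 by DESeq2, with 2 at an unadjusted p under 0.05. The difference in rhythm between the diets passed for 0.0127% of all genes and for 0 members by edgeR, by DESeq2 and at an unadjusted p under 0.05. For Spp1 the adjusted p of that difference was 1.

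Lpl differed by sex in the SCN, where 9.89% of all genes did. Here too, sex and replicate number cannot be told apart. It lay at 1.11, 3.79 and 25.1 CPM in the 24 male libraries and at 3.93, 9.06 and 39.7 CPM in the 12 female libraries. The female median was above the male, with overlap, and the difference was 1.16 ± 0.27 log2 (adjusted p 0.0100). It did not pass without replicate number 1 (0.93). In exon-bin sums the female libraries control CT20 replicate 3 and MCD CT4 replicate 3 held 29.34 and 26.02 CPM of Lpl. Their exon-bin counts, 18315163 and 19191720, were the lowest of the SCN. The part of depth in this difference was not tested. The sex difference in the diet effect passed for 0% of all genes and for 0 members by edgeR, by DESeq2 and at an unadjusted p under 0.05.

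For the 5 members with a row in both tables, the diet effects in SCN and liver were compared in 1 fit of all 72 libraries. The difference passed for 34.7% of the genes of that fit and for 3 of the 5 members. Trem2 was lower by 2.43 ± 0.33 log2 in its SCN effect than in its liver effect (adjusted p 6.91e-08), Cd68 by 1.39 ± 0.24 (7.48e-06) and Lpl by 1.57 ± 0.38 (0.000979). Adgre1 (-0.26 ± 0.29, adjusted p 0.522) and Spp1 (0.06 ± 0.30, adjusted p 0.915) did not pass. The call for Lpl was lost without replicate number 1 (-1.27, adjusted p 0.0550).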

How the data were processed

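The authors deposited whole-number read counts, not normalized, in 1 gene table per tissue and in 1 file of exon-bin counts per library, per the file headers. The submitters' processing notes name Trimmomatic, HISAT2, StringTie and DESeq2 and the build GRCm39, without their order. The annotation, and any use of strand in counting, were not given in the sources used here. Genes that overlap another are therefore uncertain.

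The main test was edgeR's quasi-likelihood F test (edgeR 4.0.16, R 4.3.3, TMM scaling, filterByExpr with a minimum count of 10, robust estimates, Benjamini-Hochberg adjustment over all genes of a tissue, threshold 0.05). The filter left 20249 of 22823 liver genes and all 15759 SCN genes. Each tissue had its own model over 36 libraries, with 1 mean for each of the 12 diet-time groups, a sex term and a common spread. Further models added a sex-by-diet term or joined the tissues, with libraries treated as independent. Rhythm was a joint test of sine and cosine terms (24 h period) over the 6 times. Exon usage was tested with diffSpliceDGE and Simes p-values. The fits were tested on simulated data. CPM in the text are TMM-scaled, 1 CPM being 1 count in 1 M. TMM factors averaged 0.917 ± 0.074 (SD, n = 18) in control and 1.096 ± 0.079 in MCD livers.

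In both gene tables, a pair of columns carries the same name (control, CT8, male). They were used as replicates without a number. The exon-bin files of 2 liver control libraries at CT0 end early, so 34 liver and 36 SCN files were summed per gene. Correlations between samples were two-sided permutation tests (100000 resamples) of log2(CPM + 0.1). Gene models came from GENCODE M21 (GRCm38), used for names, exon lengths and overlaps, and promoters from RefSeq (GRCm38.p6). The tables held promoters of 8 of the 10 members.

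All 10 members were named, and of each list the called genes with a mean of at least 1 CPM that rose most (up to 2) and fell most (up to 2). Genes most like Trem2 or Clec4f were the 6 of at least 1 CPM with the highest r. Members, lists and markers were chosen with earlier results of these data known, so none of their patterns is independent support. Alternatives were DESeq2 1.42.0, library totals, no filter, a term for library kind, a block on replicate number, leaving out each library or replicate number and, added after seeing the data, exon-bin sums and leaving out the 3 liver libraries that stood apart.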

Additional observations from a re-analysis of the deposited data

Results flagged for a closer look

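The diet effect differed between the tissues, by a test of the difference itself, for 3 of the 5 members measured in both. The SCN effect minus the liver effect was -2.43 log2 for Trem2, -1.39 for Cd68 and -1.57 for Lpl. In liver these genes rose by 2.39, 1.01 and 1.44 log2, and in the SCN their differences of -0.04, -0.40 and -0.13 did not pass the test. The fit treats liver and SCN libraries as independent, and 34.7% of all genes in it passed.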

How the results depend on the processing

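Over 100 results for single genes or lists, 4040 of 4287 values under alternatives kept their direction and their side of the threshold, 214 crossed it or moved, and 33 reversed. Replicate numbers were shared by control and MCD groups, but nothing says that they mark a shared mouse or batch, and the correlation of same-numbered deviations ran from 0.07 to 0.43 over 16 liver pairs and from -0.09 to 0.28 over 16 SCN pairs. As a hint from the data, 15 of 16 liver and 10 of 16 SCN MCD libraries correlated best with the control of their own number, where number 3 is also the female. With the replicate block, 8 members were called for diet in liver against 7 without it, Spp1 added (-0.22, adjusted p 0.0495). In the SCN rhythm on control the block ended the call for Spp1 (adjusted p 0.0775) and gave one for Lpl (0.0313), and the SCN diet effects of Lpl and Spp1 turned to 0.067 and 0.10. Leaving out the 3 libraries that stood apart (added after seeing the data) moved the liver counts of members from 11 to 28 for diet at single times, from 0 to 1 and 3 for rhythm on control and MCD, from 2 to 5 for sex and from 0 to 1 for diet by sex. With DESeq2, 4 and 1 members had a rhythm in liver on control and MCD, and 2 and 1 in the SCN. Library totals gave 2 for the SCN on control, and exon-bin sums gave 1 for liver rhythm on control and 1 for sex. Leaving out 1 library or replicate number gave 4 to 8 members for liver diet, 0 to 17 calls at single times, 0 to 3 for rhythm on control, 0 to 2 on MCD and 0 to 3 for sex. In the SCN it gave 0 to 2 for rhythm on control, 0 to 1 on MCD and 0 to 1 for sex, and between tissues 2 to 3. Library totals reversed Spp1 in liver (0.071), Apoe (0.13), Fcna (0.15), Itgb1 (0.19) and the tissue difference of Spp1 (-0.11, -0.037 to 0.13 on leaving libraries out). Exon-bin sums turned Timd4 in liver to -0.044 and Gpnmb in the SCN to 0.21, and leaving libraries out gave Timd4 -0.075 to 0.23. Over the same omissions the SCN values ran from -0.15 to 0.35 for Gpnmb, -0.32 to 0.030 for Lpl, -0.30 to 0.057 for Spp1 and -0.14 to 0.047 for Trem2, none past the threshold. Apart from these constructions, the cause was not tested. In the SCN gene table Gpnmb was listed at 0 in 1 control and 2 MCD libraries and Adgre1 in 1 of each, which the exon-bin files bear out only in part, and the part of depth in their standard errors was not tested.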

Other observations

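Erythrocyte markers were lower in MCD livers for 4 of 5 genes tested, where 4296 of all 20249 genes were lower. Their summed level was 130, 273 and 453 CPM (lowest, median and highest of 18) in control livers and 93.7, 143 and 273 CPM in MCD livers. The genes most like Trem2 in the SCN, with group and sex means removed, were Gm6278, Gm6436, Tcea2, Mrpl48-ps, Ager and 4930563E22Rik, at r of 0.62 to 0.70 over 36 libraries. None of them is a member or a microglia marker. In the SCN the highest correlation among the members after the same removal was between Lpl and Spp1 (0.60), and that between Cd68 and Trem2 was -0.10.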
